A study of Mus musculus and Homo sapiens with 12 samples.

Results

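Butyrylation of H3K18 and H4K12 was described at 10 genes of the canonical Wnt pathway: RNF43, APC, AXIN1, AXIN2, GSK3B, CTNNB1, LEF1, TCF7, TCF7L1 and TCF7L2. The genes were taken by symbol, and they are 10 of the 20033 protein-coding genes of the human annotation. The mouse genes of the same name are 10 of 21883 protein-coding genes. CUT&Tag, in which an antibody brings a transposase to the chromatin that carries a mark, was analysed in 12 libraries. CCD841, a human cell line derived from normal colon, received 1 mM NaBu for 12 to 16 h by the labels, with 2 replicates each for H3K18bu and H4K12bu. Large intestine came from male mice that carry CETP and ApoB-100 transgenes, labelled as kept on a high fat, high sucrose (HFHS) diet. By the labels, the 4 Kac libraries (H3K18ac and H4K12ac) are from mice on the HFHS diet alone and the 4 Kbu libraries from mice on that diet with 5% arabinoxylan, a fermentable fibre, with 2 replicates per mark. The labels do not tie the libraries to single animals. Age and time on the diet are not in the labels. The study's methods instead describe arabinoxylan for the whole HFHS arm and a low fat diet for the control group, with no group left on HFHS alone. The study's text compares Kbu with Kac under the arabinoxylan diet. Whether the Kac mice differed in diet, and which diet they had, is thus not settled. If the labels hold, acyl group and diet change together and cannot be told apart. No untreated CCD841 library was analysed here.

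In canonical Wnt signalling, cytoplasmic beta-catenin is bound by a destruction complex of APC, axin and GSK3 beta, phosphorylated and degraded. Wnt ligands at Frizzled receptors halt this complex, beta-catenin enters the nucleus and joins TCF/LEF proteins on DNA, and their target genes are switched on. The pathway maintains the stem cells at the base of the colonic crypt, and loss of APC is a common early step in colorectal tumours. Butyrate, made by gut bacteria from fibre, is both an energy source of colonocytes and a source of the butyryl group on histone lysines.

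The deposited lists hold peaks called in each library on its own, and overlapping peaks were merged to regions. A region in both replicates is the union of regions of the replicates that overlap by at least 1 bp, and marks were compared by these unions. The value given for a region is the deposited fold of its strongest peak relative to the local background in that library, and the pileup is the number of sequenced fragments or reads stacked at that peak, solved from the fold and the p-value. The CCD841 lists held 211088 and 229104 regions for H3K18bu and 207129 and 282656 for H4K12bu, with a median pileup of 15, 12, 15 and 7. The mouse lists were far shallower. In the Kbu libraries 89.2% to 91.4% of peaks had a pileup of 1, and the lists held 60776 and 50645 regions for H3K18bu and 50909 and 96332 for H4K12bu. The Kac lists, like those of CCD841, ran close to the limit of 300000 peaks, with 298592, 298390, 299480 and 297745 regions and 12.8% to 72.1% of peaks at a pileup of 1. In H4K12bu replicate 2 of CCD841, 154743 of the 282656 regions passed q below 0.05, while every region of the other 3 CCD841 lists did. No test was made at these genes, since the lists hold no counts per sample and a two-sided exact test of 2 libraries against 2 cannot go below p = 0.333.

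The tissue labels were set beside the starts of cell type markers. In mouse, start regions in both replicates were at 6 of 12 epithelial markers for H3K18bu, 3 for H4K12bu, 5 for H3K18ac and 2 for H4K12ac. Krt8, Krt19, Vil1, Cdx2, Cdx1 and Elf3 had H3K18bu, and Cdh1, Cldn3 and Elf3 had H4K12bu. Epcam, Krt8, Vil1, Cdx1 and Cldn3 had H3K18ac, and Krt8 and Vil1 had H4K12ac. Krt18, Krt20 and Cldn7 had none of the marks. The butyryl regions at Elf3 had a pileup of 1 in each replicate. In the same order of marks, 6.31%, 15.4%, 22% and 25.5% of all genes had such a start region. Of 10 mesenchymal markers 0, 0, 1 (Fn1) and 0 were marked, of 5 smooth muscle markers 0, 0, 1 (Des) and 0, and of 5 blood markers none. In CCD841 cells, where 31.3% of all genes had H3K18bu and 14.7% H4K12bu at the start, H3K18bu was at 1 of 12 epithelial markers (VIL1) and H4K12bu at 2 (KRT8 and KRT18, neighbours that share the region), and EPCAM and CDH1 had no start region in both replicates. Of 10 mesenchymal markers H3K18bu was at 3 (COL1A2, TWIST2 and FN1) and H4K12bu at 1 (COL1A2). Of 5 smooth muscle markers each mark was at 1 (ACTA2), and MYH11, TAGLN, CNN1 and DES had no start region in both replicates of either mark. A start region is not read here as expression.

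In CCD841 cells both butyryl marks were found along nearly all members and mostly inside the genes. H3K18bu regions at the gene or within 10 kb of it numbered 205 and 212 in the replicates, and 103 were in both. H4K12bu regions numbered 268 and 269, and 130 were in both. The order of the marks turned with stricter lists, since 94 H4K12bu regions were left with q below 0.05 in both replicates and 51 with q below 0.01, against 103 for H3K18bu in either case. H3K18bu was in both replicates at 9 of 10 members, where 75.8% of all protein-coding genes had such a region, and H4K12bu at 10 of 10, against 76.6% of all genes. The members are long genes, 33.1 kb to 273.7 kb, and per 100 kb the median was 7.46 H3K18bu regions against 3.78 over all genes and 10.9 H4K12bu regions against 4.56. Of the 103 H3K18bu regions 75.7% lay in introns, 7.77% over exons, 12.6% in the flanks and 3.88% within 1 kb of the annotated 5′ end. Of the 130 H4K12bu regions 70.8% lay in introns, 19.2% over exons, 8.46% in the flanks and 1.54% at the 5′ end. With the start of any annotated transcript instead, starts held 13.6% of H3K18bu and 10.8% of H4K12bu regions, and exons 0.971% and 12.3%.

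**Figure D1:**
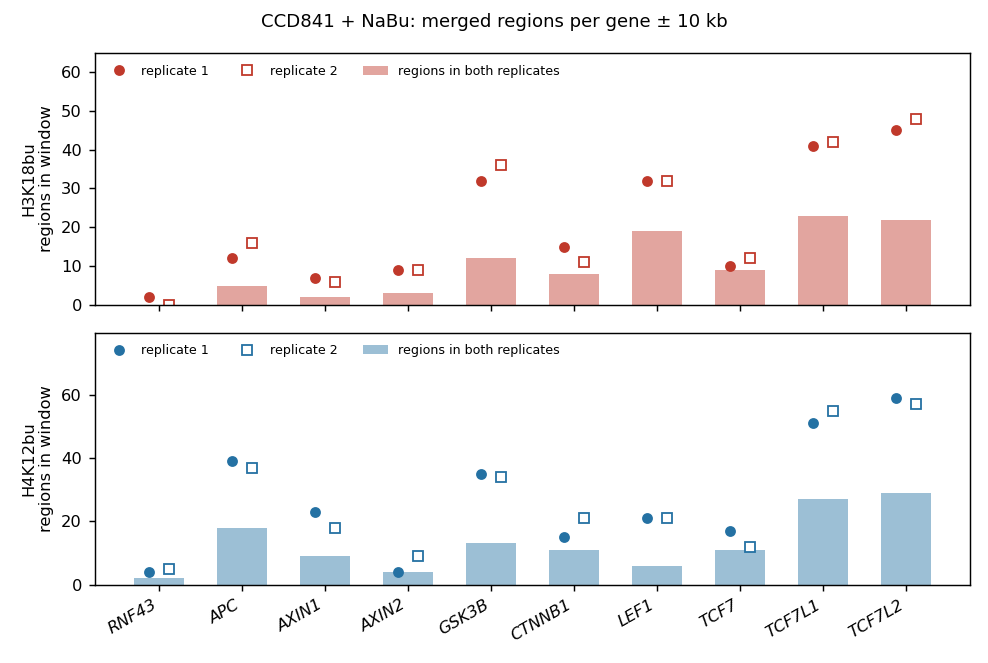
Merged regions within 10 kb of each member in CCD841 cells (y axis, number of regions), for H3K18bu above and H4K12bu below. Points are the replicates and bars the regions in both. TCF7L1 and TCF7L2 hold the most, RNF43 the fewest, and LEF1 has 19 H3K18bu and 6 H4K12bu regions in both replicates. All listed peaks are counted.

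At the 5′ end of the genes the marks were found at fewer members. H3K18bu was present within 1 kb of the annotated 5′ end in both replicates at 4 members (TCF7, APC, AXIN1 and GSK3B), where 31.3% of all genes had such a region. H4K12bu was present at 2 (APC and GSK3B), against 14.7% of all genes. With the start of any annotated transcript, of which the members have up to 48, 7 members were marked by H3K18bu and 7 by H4K12bu, against 44% and 35.4% of all genes. CTNNB1 has an annotated 5′ end 4764 bp before the start of its MANE Select transcript, the reference transcript agreed by RefSeq and Ensembl, and with MANE Select starts, a setting chosen after seeing the data, H3K18bu was at 5 members and H4K12bu at 2, against 33% and 14.9% of the 19061 genes with such a transcript.

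**Figure D2:**
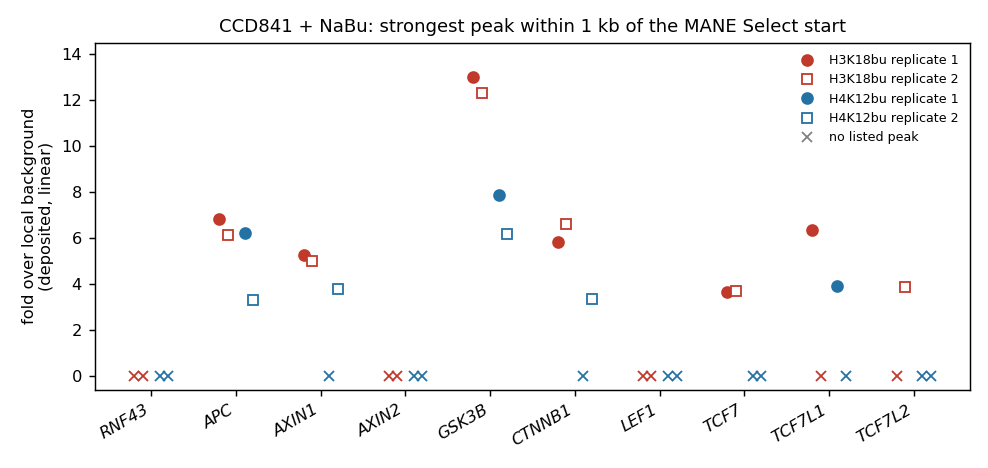
Deposited fold (y axis, linear) of the strongest peak within 1 kb of the MANE Select start in each CCD841 library, with a cross where no peak was listed. GSK3B lies highest for both marks, with 13.0 and 12.3 for H3K18bu, and RNF43, AXIN2 and LEF1 have no peak in any of the 4 libraries.

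GSK3B, the kinase that phosphorylates beta-catenin in the destruction complex, carried the strongest start among the members. Its H3K18bu region at chr3:120094255-120095284 (hg38, gene on the minus strand, across the 5′ end) had a fold of 13.0 in replicate 1 and 12.3 in replicate 2, with a pileup of 37 and 30. By the lower −log10 p of the replicates, 0.467% of the H3K18bu regions of the library pair were stronger. H4K12bu at the same start had a fold of 7.86 and 6.15 and a pileup of 19 and 10, and 3.79% of its regions were stronger. The H3K18bu replicates were close to each other, while H4K12bu was lower in replicate 2 (−log10 p 9.05 against 15.2). The fold of H3K18bu was above that of H4K12bu in every pairing of libraries, although folds of different antibodies are on the scale of their own list. The divergent transcript GSK3B-DT starts 99 bp away, so the region covers both starts. The 200 bases before the 5′ end are shown because both H3K18bu libraries covered them in full, while H4K12bu covered 144 of them in replicate 1 and 0 in replicate 2, its region in both replicates lying inside the gene.
GSK3B, chr3:120094995-120095194, minus strand: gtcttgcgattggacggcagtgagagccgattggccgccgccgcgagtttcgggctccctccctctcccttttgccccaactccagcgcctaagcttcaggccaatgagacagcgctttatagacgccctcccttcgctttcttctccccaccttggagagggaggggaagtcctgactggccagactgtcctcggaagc
The stretch is 61.5% G or C, holds 13 CG pairs and has 48 bases in an exon of the divergent transcript. Neither the TCF/LEF letters CTTTGAT and CTTTGAA nor the AP-1 letters TGAGTCA and TGACTCA were in it on either strand.

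GSK3B held 12 H3K18bu and 13 H4K12bu regions in both replicates over the gene and its flanks (293.7 kb), from 32 and 36 H3K18bu and 35 and 34 H4K12bu regions in the single libraries. Per 100 kb this was 4.09 and 4.43, below the median of the members for both marks. Away from the start, the strongest H3K18bu region in both replicates lay in an intron 262976 bp downstream, with a fold of 5.78 and 7.59, and it was shared with H4K12bu.

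APC, the scaffold of the destruction complex, was marked at its annotated 5′ end and at its MANE Select start. At the annotated 5′ end H3K18bu at chr5:112707352-112707800 had a fold of 5.82 and 5.31 and a pileup of 17 and 13. H4K12bu there had a fold of 6.52 and 3.82 and a pileup of 18 and 6. The MANE Select start lies 30367 bp further in, and its H3K18bu region at chr5:112737538-112738190 was the strongest of the gene among those in both replicates, with a fold of 6.81 and 6.13 and a pileup of 17 and 12. H4K12bu at that start had a fold of 6.23 and 3.31 and a pileup of 18 and 6, and its replicate 2 peak did not pass q below 0.05. H4K12bu was thus lower in replicate 2 than in replicate 1 at both starts, and the median pileup of that library was also the lower (7 against 15). The 200 bases before each start are shown because both marks were at both starts in both replicates.
APC 5′ end, chr5:112707318-112707517, plus strand: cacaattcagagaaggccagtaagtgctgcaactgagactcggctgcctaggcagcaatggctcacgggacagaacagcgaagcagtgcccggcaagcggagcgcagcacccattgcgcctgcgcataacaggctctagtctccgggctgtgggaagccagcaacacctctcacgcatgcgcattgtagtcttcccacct
APC MANE Select start, chr5:112737685-112737884, plus strand: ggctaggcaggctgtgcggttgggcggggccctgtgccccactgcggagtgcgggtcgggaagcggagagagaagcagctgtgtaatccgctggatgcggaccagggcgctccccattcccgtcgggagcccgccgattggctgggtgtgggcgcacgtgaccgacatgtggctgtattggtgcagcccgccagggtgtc
The first is 59.5% G or C with 11 CG pairs and the second 69.0% with 17, and neither holds the searched letters. Both H4K12bu libraries covered all 200 bases of each stretch. H3K18bu covered 200 bases at the MANE Select start in both libraries and 165 and 166 at the 5′ end.

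At APC and AXIN1 more H4K12bu than H3K18bu regions were listed, and at LEF1 fewer. APC held 12 and 16 H3K18bu regions but 39 and 37 H4K12bu regions in the replicates, with 5 and 18 in both. All 5 H3K18bu regions in both replicates overlapped an H4K12bu region in both, and the other 13 H4K12bu regions, all inside the gene, did not. The strongest of them lay in an intron 98617 bp from the 5′ end, with a fold of 4.51 and 5.16.

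AXIN1, the limiting scaffold of the complex, held 7 and 6 H3K18bu regions against 23 and 18 for H4K12bu. Its 2 H3K18bu regions in both replicates were at the start (chr16:352653-353266, fold 5.26 and 5.01, pileup 17 and 14) and in an intron 18778 bp downstream. At the start H4K12bu was listed in replicate 2 alone (fold 3.78, pileup 7). Its 9 H4K12bu regions in both replicates all lay in the gene body and none at the start. The strongest was over an exon at chr16:313580-314550, with a fold of 3.64 and 4.16 and a pileup of 38 and 18.

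AXIN2 is itself a target gene of beta-catenin and a negative regulator of the pathway. No library listed a peak within 1 kb of its annotated 5′ end. It held 9 and 9 H3K18bu and 4 and 9 H4K12bu regions, of which 3 and 4 were in both replicates. Its strongest H3K18bu region lay 6959 bp upstream of the start at chr17:65568461-65568752, with a fold of 5.02 and 4.32. Its strongest H4K12bu region lay in an intron 14971 bp downstream, with a fold of 3.40 and 3.77.

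RNF43, a membrane ubiquitin ligase that removes Frizzled receptors, had the fewest regions. H3K18bu was listed 2 times in replicate 1 and 0 times in replicate 2. H4K12bu was listed 4 and 5 times, and 2 regions were in both replicates, the stronger over an exon near the 3′ end (chr17:58354257-58354590, fold 4.87 and 4.27) and the other in the flank beyond the gene's 3′ end. Its 5′ end, where a further protein-coding gene without a symbol is annotated to start, had no peak in any library.

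CTNNB1 encodes beta-catenin. Its H3K18bu regions numbered 15 and 11, with 8 in both replicates, and its H4K12bu regions 15 and 21, with 11 in both. At the MANE Select start H3K18bu had a fold of 5.82 and 6.60 with a pileup of 13 in each replicate. H4K12bu there was listed in replicate 2 alone (fold 3.36, pileup 5). The gene's top-ranked H3K18bu region in both replicates, by −log10 p, was at chr3:41248734-41249869, in an intron 54561 bp from the 5′ end, with a fold of 5.87 and 5.37 and a pileup of 55 and 38. The end of CTNNB1 overlaps ULK4, a gene on the other strand, so the region lies in both genes. Of all H3K18bu regions 2.62% were stronger, and H4K12bu overlapped it with a fold of 3.66 and 2.99. The flank regions in both replicates, 4 of H3K18bu and 3 of H4K12bu, all lay beyond the 3′ end of CTNNB1. ULK4 runs on there, so the counts given for CTNNB1 include regions that may belong to ULK4.

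The 4 TCF/LEF genes encode the DNA-binding partners of beta-catenin, and the marks lay in their introns more than at their annotated 5′ ends. With the start of any annotated transcript, TCF7 had 4 H3K18bu regions in both replicates at a start. TCF7L2, the family member best known from the colonic crypt, held 45 and 48 H3K18bu regions and 59 and 57 H4K12bu regions, with 22 and 29 in both replicates. Its intronic H3K18bu region at chr10:113087225-113087909, 137320 bp from the start, had a fold of 8.90 and 8.97 and a pileup of 62 and 51. By the lower −log10 p it was the strongest H3K18bu region of the members, with 0.233% of all H3K18bu regions stronger, and H4K12bu overlapped it with a fold of 6.12 and 4.74. At the start itself H3K18bu was listed in replicate 2 alone, with a fold of 3.88, and H4K12bu in neither.

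TCF7L1, which acts mostly as a repressor of Wnt targets, held 41 and 42 H3K18bu and 51 and 55 H4K12bu regions, with 23 and 27 in both replicates. Its intronic H4K12bu region at chr2:85285363-85285815, 152197 bp from the start, had a fold of 8.59 and 7.10 and a pileup of 66 and 27, and 0.172% of all H4K12bu regions were stronger. H3K18bu at the same place had a fold of 6.32 and 7.38 and a pileup of 27 and 28. At the start both marks were listed in replicate 1 and not in replicate 2, with a fold of 6.36 for H3K18bu and 3.91 for H4K12bu.

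The bases at an intronic region of TCF7L2 and CTNNB1 (the top-ranked H3K18bu region in both replicates of each gene) and of TCF7L1 (its top-ranked H4K12bu region) are shown because these lay far from the annotated 5′ end. Each stretch is 200 bases around the mean of the replicates' summits, on the strand of the gene, with matches to the AP-1 letters TGAGTCA or TGACTCA in capitals. These 2 words are each other's reverse complement, so a match on either strand reads as one of them.
TCF7L2, chr10:113087379-113087578, plus strand: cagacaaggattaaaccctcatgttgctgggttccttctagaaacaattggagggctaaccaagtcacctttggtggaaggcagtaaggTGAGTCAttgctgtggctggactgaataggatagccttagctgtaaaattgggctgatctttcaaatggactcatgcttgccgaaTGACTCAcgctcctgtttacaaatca
TCF7L1, chr2:85285540-85285739, plus strand: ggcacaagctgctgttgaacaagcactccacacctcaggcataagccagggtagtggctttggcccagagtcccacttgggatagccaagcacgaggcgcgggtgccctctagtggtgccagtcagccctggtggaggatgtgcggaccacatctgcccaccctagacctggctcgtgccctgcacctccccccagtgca
CTNNB1, chr3:41249562-41249761, plus strand: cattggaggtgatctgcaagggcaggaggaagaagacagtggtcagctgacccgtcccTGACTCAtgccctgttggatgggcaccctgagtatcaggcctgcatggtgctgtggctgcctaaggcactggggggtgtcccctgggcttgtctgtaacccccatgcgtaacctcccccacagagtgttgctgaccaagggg
TCF7L2 had 2 AP-1 matches (positions 90 and 175 from the left), CTNNB1 had 1 (position 59, in a stretch with 13 bases of a coding exon of ULK4) and TCF7L1 none, and no stretch held CTTTGAT or CTTTGAA on either strand. A further count used the central 200 bases of each region, not those around the summits, so the CTNNB1 match shown is not in it. Over all member regions in both replicates, the central 200 bases held an AP-1 match in 5 of 103 (4.85%) for H3K18bu and 4 of 130 (3.08%) for H4K12bu, against 8.03% of 108536 and 6.21% of 90476 regions genome-wide. The TCF/LEF letters were in 4.85% and 2.31% of the member regions, against 4.89% and 4.16% of all. None of the 4 shares was above that of all regions.

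LEF1, a family member that is low in the normal colon and raised in colorectal tumours, went the other way from APC. It held 32 and 32 H3K18bu regions but 21 and 21 H4K12bu regions, and 19 and 6 were in both replicates. With q below 0.05 in both libraries LEF1 again had 19 and 6. That setting left H3K18bu as it was at every member and lowered H4K12bu to 6 at CTNNB1, 8 at TCF7, 18 at TCF7L1, 9 at GSK3B and 2 at AXIN2, below H3K18bu at each of these, while 11 at APC, 7 at AXIN1, 25 at TCF7L2 and 2 at RNF43 stayed above it. No library listed a peak within 1 kb of the annotated 5′ end of LEF1, although 2 H3K18bu regions in both replicates lay at other annotated transcript starts. Of its 19 H3K18bu regions 17 lay inside the gene. The strongest, at chr4:108071598-108072618 over an exon 96848 bp from the start, had a fold of 5.97 and 6.27 and a pileup of 20 and 18. All 6 H4K12bu regions overlapped an H3K18bu region in both replicates, while 7 of the 19 H3K18bu regions overlapped H4K12bu.

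TCF7, the T cell factor of the family, held 10 and 12 H3K18bu and 17 and 12 H4K12bu regions, with 9 and 11 in both replicates. With 57.2 kb, flanks included, it has the second shortest window, and it had the highest density of both marks among the members, 15.7 and 19.2 regions per 100 kb. H3K18bu at the start had a fold of 3.66 and 3.67 and a pileup of 16 and 13, the lowest H3K18bu fold of the starts marked in both replicates. H4K12bu was not listed there in either replicate.

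**Figure D3:**
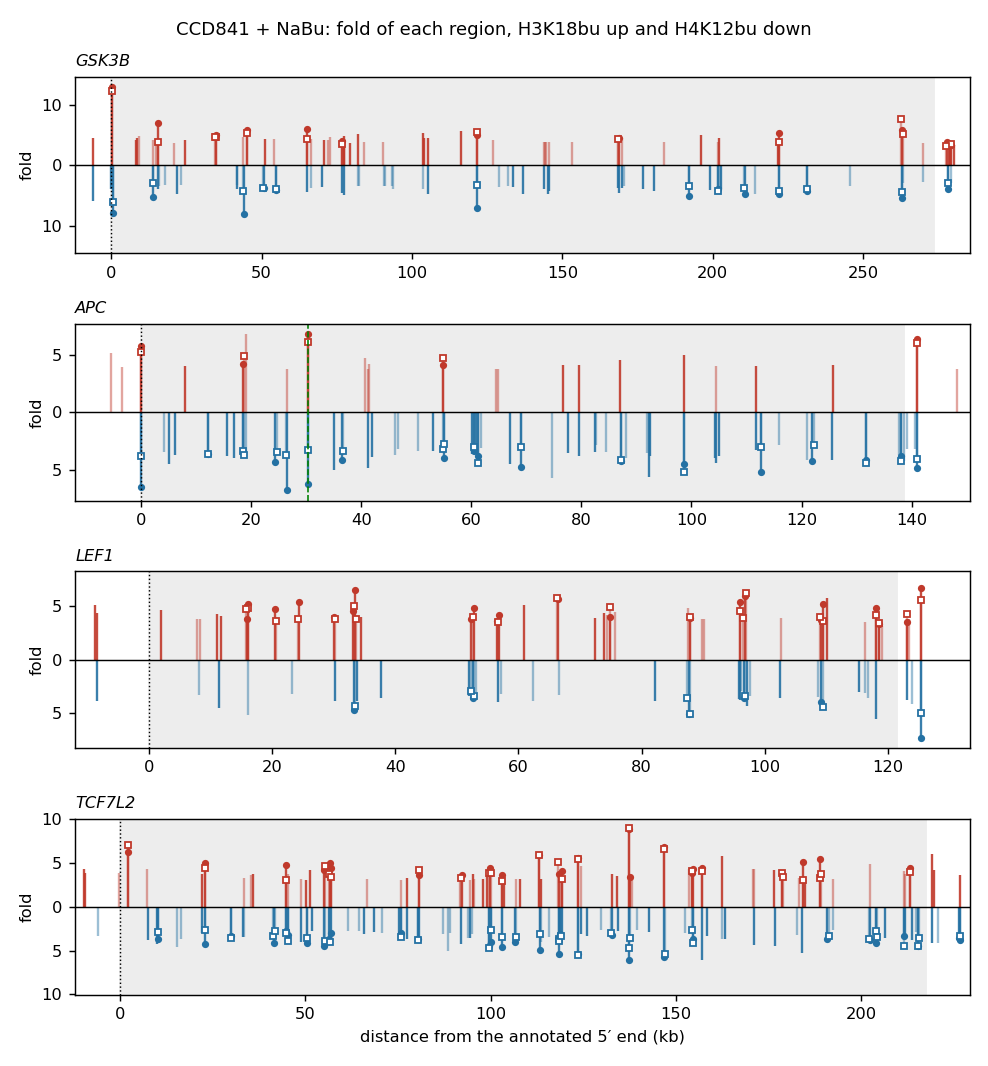
Regions of the CCD841 libraries along GSK3B, APC, LEF1 and TCF7L2. The x axis is the distance from the annotated 5′ end (kb), the y axis the deposited fold, with H3K18bu drawn upward and H4K12bu downward. Dark lines are replicate 1 and pale lines replicate 2, a filled circle (replicate 1) or open square (replicate 2) marks a region in both replicates, the grey band is the gene and the dashed line in APC is its MANE Select start. The highest H3K18bu fold of GSK3B is at its start, APC has both marks at both starts, and LEF1 has H3K18bu regions along the gene and none at the annotated 5′ end.

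The 2 marks overlapped at most members. A region of H3K18bu and one of H4K12bu, each in both replicates, overlapped at 9 of 10 members (all but RNF43), where 50.6% of all genes had such a pair. Of the 103 H3K18bu regions 58 (56.3%) overlapped H4K12bu, against 34.4% of 108536 genome-wide, and of the 130 H4K12bu regions 60 (46.2%) overlapped H3K18bu, against 41.8% of 90476. Neighbouring regions of a gene are not independent, and no test was made of these shares.

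Counted per 10000 regions of the library, both H4K12bu libraries lay above both H3K18bu libraries at 5 members (APC, AXIN1, CTNNB1, TCF7L1 and RNF43), and 42.8% of all genes had this order. APC had 0.568 and 0.698 for H3K18bu and 1.88 and 1.31 for H4K12bu. The reverse order held at 2 members, LEF1 and AXIN2, and at 21% of all genes. LEF1 had 1.52 and 1.40 for H3K18bu and 1.01 and 0.743 for H4K12bu. With 10 members both counts lie near the shares of all genes.

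In mouse large intestine most butyryl regions of the members had a pileup of 1, and few recurred. H3K18bu regions at the 10 genes numbered 73 and 65 in the replicates, with 11 in both, and H4K12bu regions 57 and 118, with 12 in both. A pileup of 1 was the strongest in 65 of the 73, 60 of the 65, 50 of the 57 and 106 of the 118 regions. The number of regions with q below 0.05 was 2, 0, 1 and 3. H3K18ac had 219 and 158 regions with 35 in both, and H4K12ac 165 and 201 with 19 in both, and here 22, 23, 6 and 47 regions passed q below 0.05. In bulk tissue, fewer cells of a type and less of a mark per cell cannot be told apart.

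H3K18bu was in both replicates at 5 of 10 mouse members, where 20.5% of all genes had such a region, and H4K12bu at 6 of 10, against 33.7%. H3K18ac was at 9 of 10, against 58.7%, and H4K12ac at 7 of 10, against 61.4%. The windows of the mouse members span 47.1 kb to 211.9 kb, and these shares take no account of length. Within 1 kb of the start the counts were 0 for H3K18bu (6.31% of all genes), 2 for H4K12bu (15.4%), 0 for H3K18ac (22% of all genes) and 1 for H4K12ac (25.5%). The single H3K18ac libraries listed a start peak at 7 and 2 members, and at Ctnnb1 and Gsk3b both did, with peaks that did not overlap. Regions per 100 kb had a median over the members of 0.282, 0.955, 2.5 and 0.783 for H3K18bu, H4K12bu, H3K18ac and H4K12ac, and 0, 0, 1.87 and 2.05 over all genes. The medians of 0 follow from most genes having no butyryl region in both replicates.

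**Figure D4:**
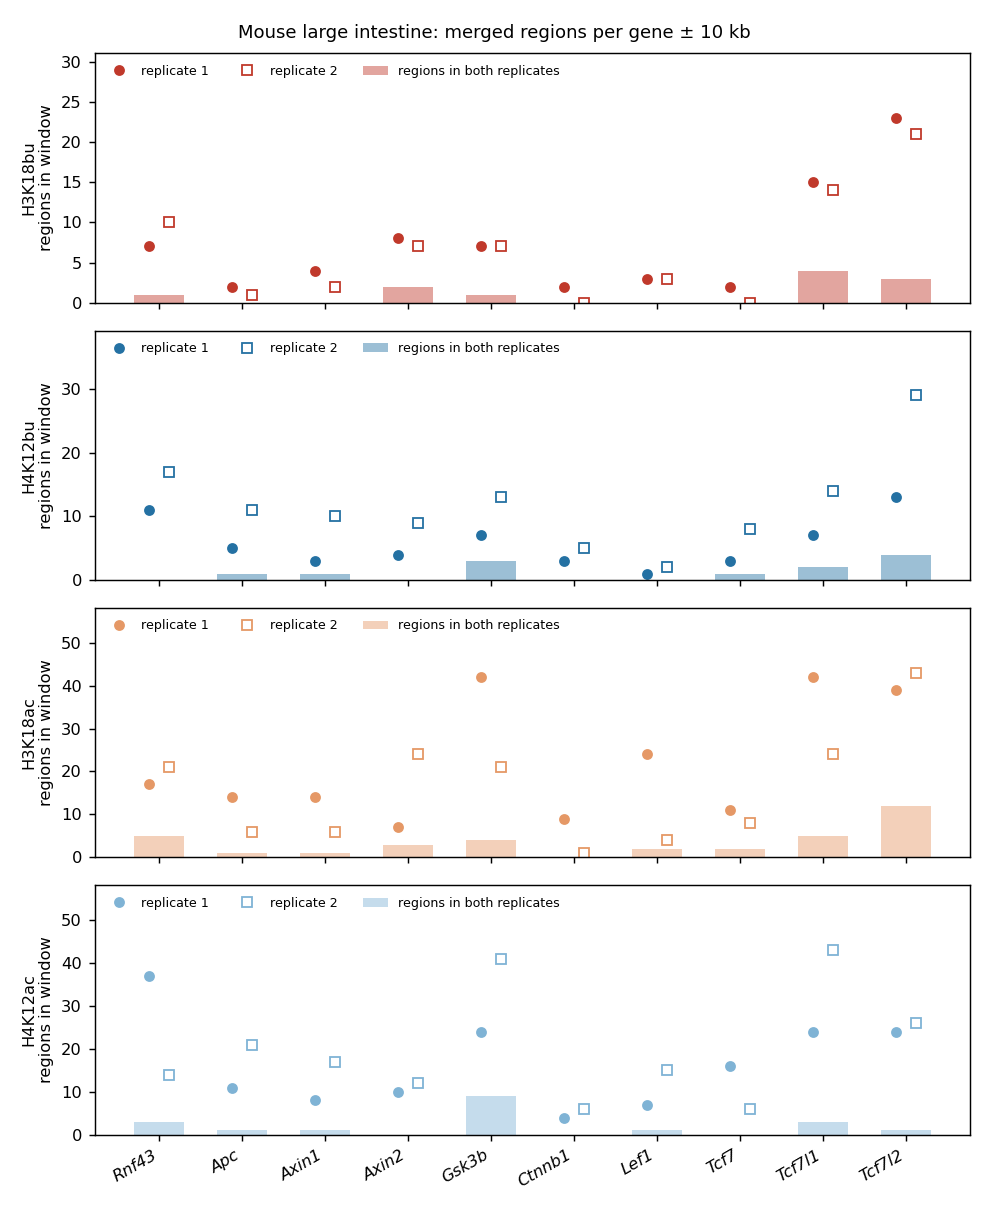
Merged regions within 10 kb of each mouse member (y axis, number of regions), with a panel for each mark, points for the replicates and bars for the regions in both. Replicates of the Kac marks differ widely at single genes, such as 24 and 4 H3K18ac regions at Lef1, and Ctnnb1 has no bar for any mark.

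Apc carried the single butyryl region of the members that passed q below 0.05 in both replicates. H4K12bu had a fold of 3.83 and 4.66 there, with a pileup of 3 and 4, at the end of the gene with the lower coordinate, and 1.19% of all H4K12bu regions in both replicates were stronger. The table used gives no strand for Apc and Axin1, so both ends of these genes were taken as possible starts. H4K12ac was listed within 1 kb of the same end in both replicates, with a fold of 3.21 and 3.41, but its peaks did not overlap each other. In the gene and flanks H4K12bu had 5 and 11 regions and H3K18bu 2 and 1.

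Gsk3b was the other mouse member with H4K12bu at the start. Of its 2 H4K12bu start regions in both replicates, the weaker had a pileup of 1 in each library. The stronger, 100 bp before the start, had a fold of 1.94 and 3.73 and a pileup of 1 and 3. An H4K12ac region (fold 3.83 and 2.46, pileup 4 and 2) touched the edge of this stronger region. The H4K12ac peak of replicate 2 ended before the peaks of that H4K12bu region began in either replicate. H3K18bu had a peak of pileup 1 at the start in each replicate, and these peaks did not overlap. The 250 bases before the start, from the RefSeq promoter table (GRCm38.p6), are shown as the mouse counterpart of the GSK3B stretch.
Gsk3b, chr16:38088751-38089000, plus strand: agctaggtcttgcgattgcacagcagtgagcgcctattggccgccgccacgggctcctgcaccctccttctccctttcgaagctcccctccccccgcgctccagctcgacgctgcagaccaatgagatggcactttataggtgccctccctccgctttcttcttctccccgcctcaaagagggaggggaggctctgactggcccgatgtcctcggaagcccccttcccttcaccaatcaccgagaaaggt
H4K12bu regions covered 173 and 229 of these bases, H3K18bu 169 and 75, H4K12ac 45 and 0, and H3K18ac 0 and 0. The stretch is 62.0% G or C with 15 CG pairs, and its longest run shared with the human stretch is 13 bases. None of the 15 promoters of the 8 mouse members in the table held the TCF/LEF or AP-1 letters, which 8.65% and 5.2% of all 32851 promoters did.

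Gsk3b also held the region with the most marks. Inside the gene, 102656 bp from the start (chr16:38191513-38191801, mm10), H3K18ac had a fold of 12.1 and 4.86 and a pileup of 15 and 5. In replicate 1 this was the highest fold of any mouse member region in both replicates. H4K12ac at the same place had a fold of 2.45 and 4.75 with a pileup of 2 and 5, and H3K18bu a fold of 1.97 and 2.87 with a pileup of 1 and 2. H4K12bu was not there in both replicates. Over the gene H4K12ac had 9 regions in both replicates, more than at any other member, H3K18ac 4, H4K12bu 3 and H3K18bu 1.

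Tcf7l2 and Tcf7l1 had the most H3K18bu regions. Tcf7l2 had 23 and 21 H3K18bu and 13 and 29 H4K12bu regions, with 3 and 4 in both replicates. A stretch inside the gene at chr19:55868010-55868534, 126475 bp from the start, was the only place at a mouse member where H3K18bu and H4K12bu, each in both replicates, overlapped, with a pileup of 2 and 1 for H3K18bu and 2 and 2 for H4K12bu. Such an overlap was at 1 of 10 members and at 8.15% of all genes. H3K18ac had 12 regions in both replicates at Tcf7l2, its highest number, and 3 of them passed q below 0.05 in both.

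Tcf7l1 had 15 and 14 H3K18bu and 7 and 14 H4K12bu regions, with 4 and 2 in both replicates. These 6 regions lay 152720 bp or more from its start, near the gene's 3′ end and beyond it, on the side where Tgoln1 starts, so they may belong to either gene. The H4K12bu region with the highest fold had a fold of 2.72 and 6.19 and a pileup of 2 and 6.

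The remaining mouse members had butyryl regions of pileup 1 only, where a region was in both replicates at all. Axin2 had 2 H3K18bu regions in the flank before its start. Rnf43 had 1 H3K18bu region in the gene, although 11 and 17 H4K12bu regions were listed in the single libraries. Tcf7 and Axin1 had 1 H4K12bu region each in the gene. Lef1 and Ctnnb1 had no butyryl region in both replicates, and Ctnnb1 none of the Kac marks either.

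Butyryl and acetyl regions of the same residue overlapped at 2 of 10 mouse members for each residue. H3K18bu and H3K18ac overlapped at 2 members (Tcf7l2 and Gsk3b), against 11.7% of all genes, and H4K12bu and H4K12ac at 2 members (Tcf7l1 and Gsk3b), against 16% of all genes. Of the member regions, 2 of 11 H3K18bu (18.2%) and 2 of 12 H4K12bu (16.7%) overlapped the acetyl mark, where 47.1% and 35.1% of all such regions did. H3K18ac and H4K12ac overlapped at 3 members, against 26.6% of all genes. These shares rest on 11 and 12 regions.

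Per 10000 regions, both H4K12bu libraries of the mouse lay above both H3K18bu libraries at 3 members, Ctnnb1, Tcf7 and Apc, and at 20.4% of all genes. They lay below at 4 members, Lef1, Tcf7l1, Tcf7l2 and Axin2, and at 10.2% of all genes. At Ctnnb1 this rests on 2 and 0 H3K18bu against 3 and 5 H4K12bu regions, all but 1 of pileup 1. Apc had 0.329 and 0.197 for H3K18bu and 0.982 and 1.14 for H4K12bu. Lef1 had 0.494 and 0.592 for H3K18bu and 0.196 and 0.208 for H4K12bu, from 3 and 3 against 1 and 2 regions. TCF7L1 had opposite orders in the 2 systems.

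**Figure D5:**
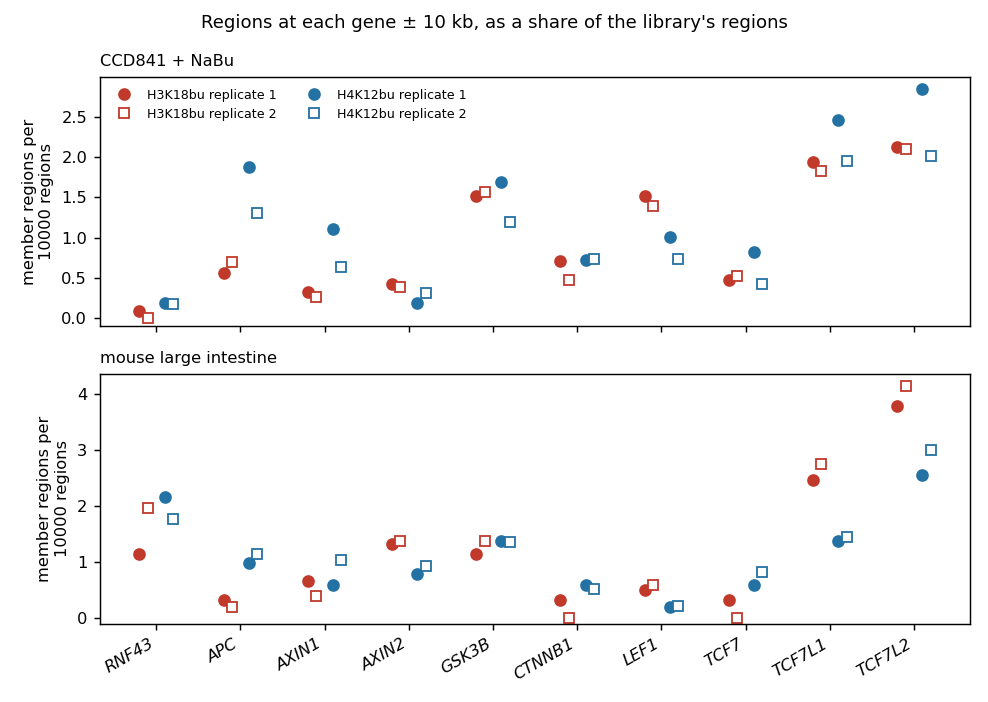
Regions within 10 kb of each member per 10000 regions of the same library (y axis), for the butyryl marks of CCD841 cells above and mouse large intestine below, with a point for each library. At APC both H4K12bu points lie above both H3K18bu points in each panel, at LEF1 below, and at TCF7L1 the panels differ. The share of all genes with like orders in both systems was not computed.

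The rest of the pathway was counted from a list of 86 genes by role, all of which matched in both species. H3K18bu was at the start in both replicates at 28 of 86 genes (32.6%) in CCD841 cells and H4K12bu at 8 (9.3%), against 31.3% and 14.7% of all genes. By role, H3K18bu was at 4 of 23 ligands and agonists, 0 of 2 secretion factors, 7 of 15 receptors, 3 of 13 extracellular inhibitors, 8 of 15 cytoplasmic components, 4 of 11 nuclear cofactors and 2 of 7 target genes, and H4K12bu at 0, 0, 2, 1, 2, 2 and 1 of them. The strongest H3K18bu starts were EPHB3, an ephrin receptor and Wnt target (fold 6.92 and 6.86), FZD8 (fold 9.44 and 7.66) and FZD1 (fold 7.37 and 7.09), both Frizzled receptors. For H4K12bu they were FZD1 (fold 6.26 and 5.03), CTNNBIP1, an inhibitor that keeps beta-catenin from the TCF proteins (fold 5.92 and 4.69), and EPHB3 (fold 5.73 and 4.48). FZD10 and SP5 had no listed peak of either mark in the gene or within 10 kb of it. The fold at the GSK3B start was above all of these for both marks, in each replicate.

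In mouse the starts marked in both replicates were 8 of 86 for H3K18bu (9.3%), 9 for H4K12bu (10.5%), 20 for H3K18ac (23.3%) and 25 for H4K12ac (29.1%), against 6.31%, 15.4%, 22% and 25.5% of all genes. Wnt6, a ligand, was among the strongest 3 for all 4 marks. At its start H3K18bu had a fold of 6.27 and 2.83 and H4K12bu of 4.72 and 6.27, while H3K18ac reached 5.89 and 5.45 and H4K12ac 4.70 and 6.12. Wls, which carries Wnt ligands to the cell surface, led both acetyl marks with a fold of 6.72 and 5.80 for H3K18ac and 6.37 and 5.13 for H4K12ac. Fzd1 had H4K12bu with a fold of 3.78 and 5.24 and H3K18ac with 4.10 and 7.42. The other named starts were Rspo1, Lgr4 and Csnk1d, with a pileup of 1 or 2, and Sfrp4 for H4K12ac with a fold of 4.48 and 4.59. Every mouse gene of the list had at least 1 peak in its window.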

How the data were processed

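CUT&Tag peak lists of 12 libraries were analysed, 4 from CCD841 cells and 8 from mouse large intestine. The submitters' processing notes name bcl2fastq 2.17.1, cutadapt 1.9.1, Bowtie2 2.3.1 and MACS2 2.1.0, with hg38 and mm10. Peaks were called by the authors per library without a control at a p threshold of 0.01, with a limit of 300000 peaks, and blacklisted regions were removed. The deposited fold is a ratio of the pileup to the local background, and the authors' lists also give −log10 p-values and −log10 q-values, a score and a summit offset for each peak.

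Peaks were merged to regions, and regions of replicates sharing at least 1 bp were counted as in both. Pileups were solved from the deposited fold and −log10 p, and at least 99.9997% came out whole within 0.01 on the −log10 p scale. The solver was tested on simulated data. Identical intervals in any 2 libraries of a system were at most 0.755% of the shorter list. Genes were GENCODE 44 (hg38) and RefSeq (mm10) protein-coding genes with 10 kb on either side, and a start was within 1 kb of the 5′ end, or of either end for mouse genes without strand (strand was given for 17491 of 21883). Exons and introns were told apart for human genes only. Regions in both replicates were ranked by whichever replicate had the lower −log10 p. All 10 members are named, and from a pathway list the 3 strongest starts per mark and system and genes without any peak. The blood marker count of CCD841 cells is not reported here. The members and lists were chosen with earlier results of these data known. The sources do not say that replicates of CCD841 were separate cultures or that equal replicate numbers mark 1 animal. Alternatives were stricter q-values, a pileup minimum, equal numbers of peaks, other windows, starts and overlaps, and leaving out each replicate. Python 3.11.15, numpy 2.4.6, pandas 2.3.3, scipy 1.17.1 and matplotlib 3.10.9 were used.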

Additional observations from a re-analysis of the deposited data

Results flagged for a closer look

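TCF7L1 had opposite orders of the butyryl marks in the 2 systems. In CCD841 cells H4K12bu had 2.46 and 1.95 regions per 10000 of the library and H3K18bu 1.94 and 1.83, so both H4K12bu libraries were above both H3K18bu libraries. In mouse large intestine H4K12bu had 1.38 and 1.45 and H3K18bu 2.47 and 2.76, so both were below. The difference between the systems was not tested, and in CCD841 cells the nearest libraries, at 1.95 and 1.94, were almost equal.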

How the results depend on the processing

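Of 312 values under other settings, 18 of CCD841 and 88 of mouse moved, and 98 and 108 did not. A count moved when it changed by more than a set factor. A share moved when it left the exact binomial interval of the main share, which treats regions as independent. No CCD841 peak had a pileup of 1 and the CCD841 lists were of nearly equal length. A pileup minimum and equal numbers of peaks could thus hardly move CCD841 values, and 16 values under each were among those that did not. No paired analysis was made, since the sources do not tie equal replicate numbers of different marks to 1 animal or culture. Most butyryl peaks in mouse have a pileup of 1, and read depth is not known from the lists.

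Leaving out a replicate left all regions of the other library, so these counts are of single libraries and not of regions in both replicates. At the members in CCD841 they were 205 to 212 (H3K18bu) and 268 to 269 (H4K12bu). In mouse they were 65 to 73 (H3K18bu), 57 to 118 (H4K12bu), 158 to 219 (H3K18ac) and 165 to 201 (H4K12ac). Members with a start region were then 2 to 3 (H3K18bu), 2 to 4 (H4K12bu), 2 to 7 (H3K18ac) and 2 to 4 (H4K12ac) in mouse. In CCD841 each peak counted on its own gave 188 H3K18bu and 242 H4K12bu regions in both replicates. With q below 0.01, H4K12bu had 51 regions in both replicates and 1 marked start, and its replicate 2 had 75 regions (166 with q below 0.05). With the start of any annotated transcript, 7 members were marked by H3K18bu and 7 by H4K12bu, start regions were 13.6% and 10.8% and exon regions 0.971% and 12.3%. H3K18bu replicate 1 had 8.05 regions per 10000 in genes alone and 8.39 within 3 kb.

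In mouse, q below 0.05 left 0 (H3K18bu), 1 (H4K12bu), 7 (H3K18ac) and 2 (H4K12ac) regions in both replicates, and q below 0.01 left 0, 0, 1 and 0. A pileup of at least 2 left 1 H3K18bu and 3 H4K12bu regions, an overlap of at least 50% of the shorter region 5 for H3K18bu, and equal numbers of strongest peaks 5 (H4K12bu), 11 (H3K18ac) and 2 (H4K12ac). Single libraries had 2 and 0 (H3K18bu), 1 and 3 (H4K12bu), 22 and 23 (H3K18ac) and 6 and 47 (H4K12ac) regions with q below 0.05, and 1 and 0, 0 and 2, 10 and 6, and 1 and 10 with q below 0.01. With a pileup of at least 2 they had 8 and 5 (H3K18bu), 7 and 12 (H4K12bu) and, for H3K18ac replicate 1, 104. With equal numbers of strongest peaks they had 50 and 41 (H3K18ac), 34 and 31 (H4K12ac) and, for H4K12bu replicate 2, 37.

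Marked mouse starts were 1 for H4K12bu with q below 0.05 or a pileup of at least 2 and 0 with q below 0.01, 0 for H4K12ac with either q or equal numbers of peaks, and 1 for H3K18ac with a 3 kb window or any transcript start. Members where the H3K18 and H4K12 marks overlapped were 8 (butyryl) and 10 (acetyl) with either replicate, and 0 and 0 with q below 0.05. In genes alone, H3K18ac had 6.06 and 4.29 regions per 10000, H4K12ac 4.41 and 5.47, and H4K12bu replicate 2 had 9.24, and H4K12ac replicate 1 had 4.64 within 3 kb. With q below 0.05, 100% of H3K18ac and H4K12ac regions lay in the gene, 0% in flanks and 0% of H4K12ac at starts, as for H3K18ac with q below 0.01, H3K18bu with a pileup of at least 2 and H4K12ac with equal numbers of peaks, and H4K12bu lay 100% at starts. These shares rest on few regions. For H4K12bu (at Apc), H3K18ac with q below 0.01 and H3K18bu with a pileup of at least 2 it was 1 region each.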
